A study of Mus musculus with 4 samples.

Results

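The cells described here are classical Ly6c2 monocytes, found in single-cell RNA-seq of immune cells sorted from mouse brain. A barcode was taken as a member when it held at least 200 genes, at most 10% mitochondrial unique molecular identifiers (UMIs, each standing for 1 captured transcript), at least 4 UMIs summed over Ly6c2, Ccr2, Chil3 and Plac8, and at least 3 UMIs of the myeloid lysozyme gene Lyz2. A member also held no UMI of the T cell genes Cd3d, Cd3e and Cd3g or of the neutrophil genes Cxcr2 and Retnlg, and at most 1 UMI of the complement genes C1qa, C1qb and C1qc. It held at most 1 UMI of the dendritic cell genes Flt3, Xcr1, Clec9a and Cd209a, and at most 1 of the patrolling monocyte genes Treml4, Ace, Cd300e and Ear2. The rule found 573 members among the 8572 barcodes that met the gene and mitochondrial limits. Of these, 333 came from tumors treated with αCTLA-4 combined with CD4 depletion, 114 from αCTLA-4 tumors, 100 from IgG tumors and 26 from healthy brain. The members were thus chosen by the measured UMIs of these 21 genes, whose values are given below as a description.

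Tumors were grown from glioma-005, a mouse glioblastoma line, placed in the hippocampus of C57BL/6J mice aged 8 to 12 weeks. From day 7 after implantation, mice received antibodies into the peritoneum. The first group had αCTLA-4 (Syrian hamster clone 9H10), which blocks the T cell checkpoint receptor CTLA-4, together with a CD4-depleting antibody (αCD4). The second group had αCTLA-4 and the third an isotype antibody, rat IgG2a, called IgG here. The fourth group was healthy brain of C57BL/6 mice, for which age, any treatment and the number of animals are not given in the sources used here. Tumor-bearing brains were taken on day 35, and each tumor library pooled 3 tumors. After perfusion, tissue digestion and Percoll separation, microglia, CD45hi CD11b+ myeloid cells, CD45hi CD3+ T cells and the other CD45hi cells were sorted. The sorted fractions were mixed in equal proportions and made into 1 library per group with 10x Chromium 3′ chemistry, so the share of monocytes among all cells follows the mixing and is not compared.

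Each group is 1 library, so no test was possible, no p-value is given, and a difference between treatments cannot be told apart from a difference between pools of mice. Levels are in CPM, the UMIs of a gene summed over the members of a library and scaled to 1000000 UMIs of those members, and ratios carry exact 95% intervals that cover counting error only. A gene was called higher or lower by a size rule: the pair of libraries held 30 or more of its UMIs, 10% or more of the members of the higher library had 1, and the CPM ratio was 2 or more. Where a library had no UMI of a gene, a floor of 3 counts per library was used and the ratio is a lower bound.

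Classical monocytes leave the bone marrow by way of the chemokine receptor CCR2, carry the surface protein Ly6C, and enter inflamed tissue and tumors, where they can turn into macrophages. Interferon-γ, made by T cells and NK cells, acts on such cells through transcription factors such as IRF1 and induces guanylate-binding proteins, the chemokines CXCL9 and CXCL10, and MHC class II. Monocytes and the macrophages that arise from them are among the most abundant immune cells of gliomas, where myeloid arginase 1 is known for restraining T cells.

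Members held 2337603 UMIs in all in the αCTLA-4 with CD4 depletion library, 1098587 in αCTLA-4, 820723 in IgG and 212497 in healthy brain. The median member had 6774, 9424 and 8568 UMIs in the 3 tumor libraries, in the same order, and 9663 in healthy brain. Members with under 2000 UMIs numbered 3, 0 and 5 in the tumor libraries and 9 in healthy brain. A total of 9 barcode sequences occurred in more than 1 library, and none of them was a member in both. The healthy brain library also stood apart in sex-linked genes: Xist stood at 297, 425 and 355 CPM in the tumor libraries and had no UMI in healthy brain, and the Y-linked Ddx3y stood at 0, 0 and 2.44 CPM in the tumor libraries and 28.2 in healthy brain. Tumor and sex of the mice therefore cannot be told apart in any comparison with healthy brain.

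Of the 5 markers of the label, Plac8, Ccr2, Ly6c2 and Chil3 chose the members, so their levels are described and check nothing. Plac8, the most abundant, stood at 5155 CPM in αCTLA-4 with CD4 depletion, 6618 in αCTLA-4, 6656 in IgG and 3633 in healthy brain. Ccr2, the receptor through which monocytes are recruited, stood at 1061, 1097, 1368 and 692 CPM in the same order. Ly6c2, which encodes the surface protein that names the cells, stood at 1139, 1753, 2040 and 1379 CPM, and its neighbour Ly6c1 at 0.856, 3.64, 1.22 and 0 CPM. These 3 genes differed among the 4 libraries by at most 1.98-fold, with healthy brain lowest for Plac8 and Ccr2 and αCTLA-4 with CD4 depletion lowest for Ly6c2. Chil3, which encodes a chitinase-like lectin of monocytes and neutrophils, had another order, at 2221, 752, 1199 and 3007 CPM, with healthy brain highest and αCTLA-4 lowest. Without the members rich in neutrophil genes, described below, it stood at 2145, 752, 1194 and 2057 CPM, and healthy brain was no longer highest. Vcan, which encodes the proteoglycan versican and was the 1 marker outside the rule, was found in 110 of 333, 28 of 114, 34 of 100 and 7 of 26 members, so most members held no UMI of it. Values of genes with near-identical copies (Ly6c2 and Ly6c1, H2-Q4 and H2-Q7, Bcl2a1b) are uncertain, since reads of such copies can be hard to tell apart.

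**Figure D1:**
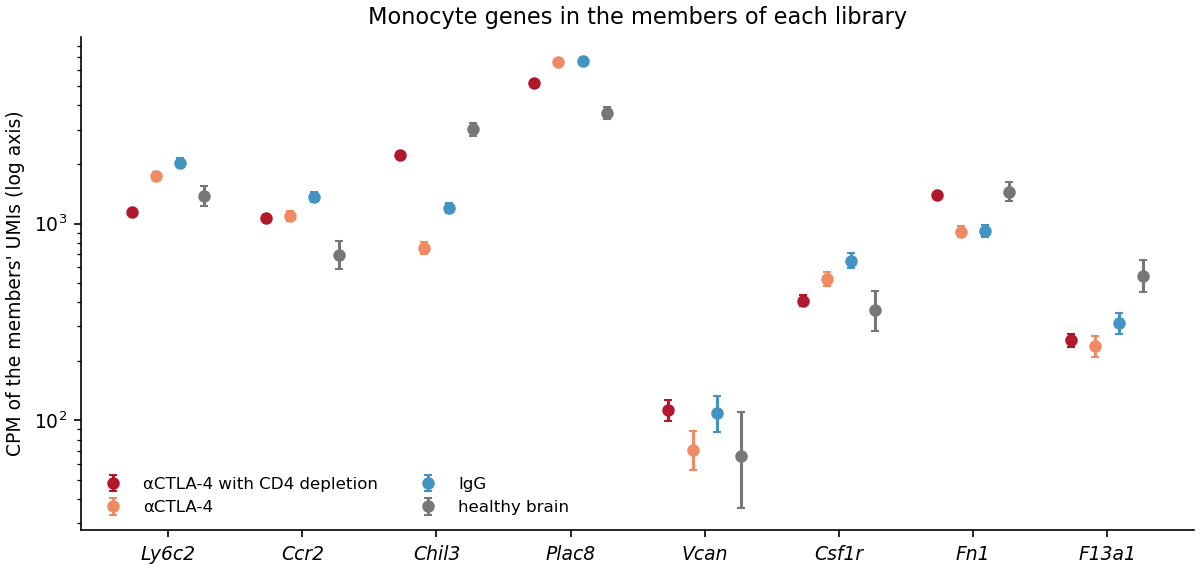
Levels of classical monocyte genes in the members of each library, in CPM on a log axis, with exact 95% Poisson intervals; libraries run from αCTLA-4 with CD4 depletion on the left to healthy brain on the right. Plac8, Ccr2 and Ly6c2 lie close together in the 4 libraries, while Chil3 is at 2221 CPM in αCTLA-4 with CD4 depletion and 3007 CPM in healthy brain (2057 CPM there without the members rich in neutrophil genes), against 752 CPM in αCTLA-4.

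Csf1r, the growth factor receptor of monocytes and macrophages and no part of the rule, was detected in 285 of 333, 105 of 114 and 93 of 100 tumor members, but in 16 of 26 members of healthy brain. Some members instead carried abundant neutrophil transcripts. With at least 10 UMIs of the calprotectin genes S100a8 and S100a9, or at least 3 of the granule genes Ngp, Camp and Ltf, there were 26 such members in αCTLA-4 with CD4 depletion (7.81%), 0 in αCTLA-4, 2 in IgG (2%) and 9 in healthy brain (34.6%). In healthy brain, 5 of the 9 held at least 3 UMIs of Ngp, Camp and Ltf, and none of these 5 had a UMI of Csf1r, Ccr2 or Fn1. Their median was 1129 UMIs. The name classical monocyte therefore does not describe these 5 members, and Csf1r was found in 1 and Ccr2 in 3 of all 9.

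The 26 members of αCTLA-4 with CD4 depletion differed from those of healthy brain. Csf1r was found in 17 and Ccr2 in 20 of them, none held at least 3 UMIs of Ngp, Camp and Ltf, and their median was 8592 UMIs. S100a8, one of the 2 subunits of calprotectin, stood at 1010 CPM over all members of αCTLA-4 with CD4 depletion, 16.4 in αCTLA-4, 37.8 in IgG and 29313 in healthy brain. Without the members rich in neutrophil genes it stood at 107, 16.4, 6.11 and 101.9 CPM, so these few members held 90.4% of the S100a8 UMIs of αCTLA-4 with CD4 depletion and 99.7% of those of healthy brain. Many results that these members touch are given below with and without them, and the others with all members. A rule of at least 20 members per library was set for comparisons, and healthy brain keeps 17 without them.

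**Figure D2:**
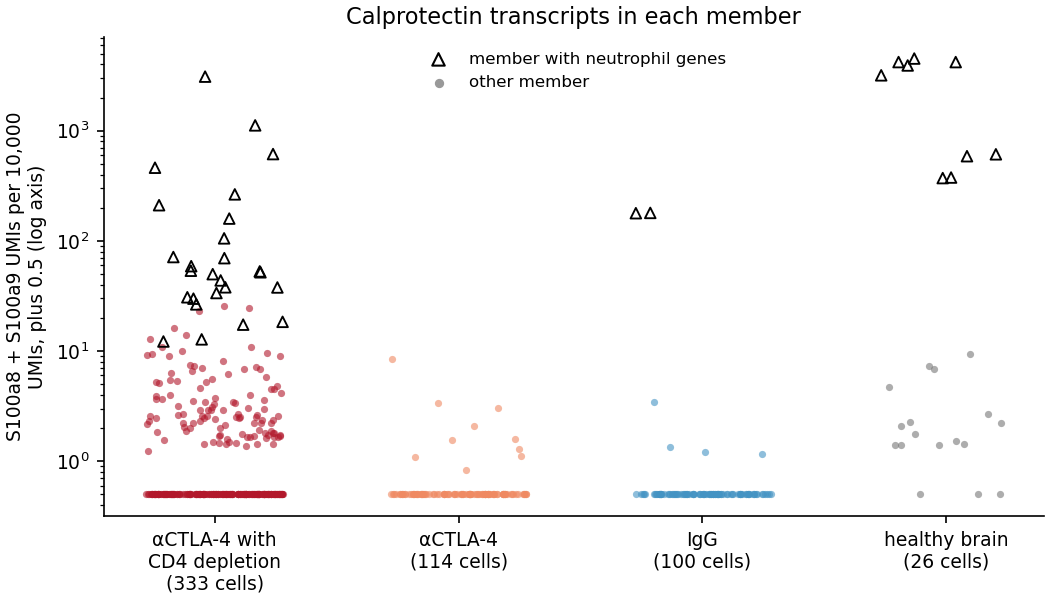
Each point is 1 member, with its S100a8 and S100a9 UMIs per 10000 UMIs, by library from αCTLA-4 with CD4 depletion on the left to healthy brain on the right. Healthy brain holds a separate set of members with very high values, and 26 members of αCTLA-4 with CD4 depletion pass the limit for neutrophil genes, against 0 in αCTLA-4.

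Markers of other cell types differed in level. The 5 neutrophil markers outside the rule summed to 1525 CPM in αCTLA-4 with CD4 depletion, 84.7 in αCTLA-4, 154 in IgG and 54768 in healthy brain. Plasmacytoid dendritic cell markers summed to 477, 627, 601 and 174 CPM. Nearly all of that was Bst2, which interferon also induces, at 475, 623, 596 and 169 CPM, while their defining marker Siglech stood at 0.428, 0.910, 2.44 and 4.71 CPM. NK cell markers summed to 3.85, 315, 306 and 0 CPM. Cd4 and Cd8a, the T cell markers in the table that the rule did not use, summed to 0.856 CPM in αCTLA-4 with CD4 depletion, 0 in αCTLA-4, 1.22 in IgG and 0 in healthy brain. The 7 microglia markers summed to 226, 218, 257 and 221 CPM. B cell or NK cell genes reached at least 3 UMIs in 1, 6, 2 and 0 members, and of the αCTLA-4 UMIs of Gzma, a granzyme of killer lymphocytes, 97.0% lay in 5 members. The macrophage markers that the rule did not use (Ms4a7, Apoe, Arg1 and Mrc1) summed to 7057, 3647 and 5801 CPM in the 3 tumor libraries and 1158 in healthy brain, where Arg1 and Mrc1 were at 0. Most of each sum was Apoe, at 6458, 3005, 5283 and 1144 CPM. In all, 173 members held the 1 C1q UMI that the rule allows. At the lower limit of the rule, 4 members had exactly 4 UMIs of the 4 marker genes, and 2 of these had Csf1r. Another 7 barcodes had 3 UMIs and met every other condition.

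Among the barcodes that met the rule of 1 of 5 CD45hi classes (classical monocyte, patrolling monocyte, neutrophil, C1q macrophage and dendritic cell), classical monocytes made up 32.7% in αCTLA-4 with CD4 depletion (exact binomial 95% interval 29.8 to 35.7; 333 of 1019). The share was 33.0% in αCTLA-4 (28.1 to 38.3; 114 of 345), 30.6% in IgG (25.6 to 35.9; 100 of 327) and 10.3% in healthy brain (6.85 to 14.8; 26 of 252). The intervals of the 3 tumor shares overlapped, and all lay above that of healthy brain. These intervals cover counting error only, with 1 library per group. Members rich in neutrophil genes are included, 9 of the 26 in healthy brain, which keeps 17 without them. Barcodes carry no sort label, and the part of the mixing of sorted fractions in these shares was not tested. Patrolling monocytes, the Ly6C-low monocytes that crawl along vessel walls, were 6.77%, 19.4% and 17.1% of the same cells in the tumor libraries and 31.7% in healthy brain. Classical monocytes thus outnumbered patrolling ones in each tumor library, by 333 to 69, 114 to 67 and 100 to 56, while healthy brain had 26 classical and 80 patrolling ones.

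Against healthy brain, monocytes of IgG tumors had far higher MHC class II, interferon-γ response and chemokine transcripts and lower levels of Klf2 and Klf4. Of 4046 genes with enough UMIs, 667 were higher in IgG (16.5%) and 357 lower (8.82%). Without the members rich in neutrophil genes, 634 were higher (16.4%) and 353 lower (9.15%) of 3856, and 540 and 245 genes were called in both versions. Scaling by median-of-ratios size factors moved the median gene to 0.17 on the log2 scale, against -0.01, and gave 822 higher and 244 lower.

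MHC class II genes, which present antigen to CD4 T cells, were among the leading names. Cd74, the invariant chain, stood at 5286 CPM in IgG and 65.9 in healthy brain, 80.2-fold higher (47.8 to 147). H2-Ab1 stood at 1826 CPM in IgG and 28.2 in healthy brain, and H2-Aa at 1874 and 18.8 CPM. All 10 measured genes of the class II list passed 1.5-fold upwards, with a median log2 ratio of 2.89, while among the 6949 genes with at least 10 UMIs, 25.1% were that much higher and 25.7% lower, with a median of -0.01. All 15 MHC class I genes were higher too (median 1.55). Among these, Nlrc5, the transactivator of class I genes, was 13.2-fold and the peptide transporter gene Tap1 6.45-fold higher (3.55 to 13.1). Without the members rich in neutrophil genes the medians were 2.46 for class II and 1.11 for class I, and among members without a C1q UMI that of class II was 4.39. With the mean of per-cell CPM, in which shallow members weigh as much as deep ones, the log2 ratio of H2-Ab1 was 3.98, against 6.02 from summed UMIs.

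In the list of 22 measured interferon-γ response genes, 20 were higher in IgG and none lower, with a median log2 ratio of 3.52 in which 9 genes without a UMI in healthy brain stand at their bound. Gbp2, a guanylate-binding GTPase that acts on intracellular pathogens, stood at 1519 CPM in IgG and 14.1 in healthy brain, 108-fold higher (36.7 to 523). Cxcl9 and Cxcl10, the ligands of the T cell chemokine receptor CXCR3, stood at 938 and 995 CPM in IgG, and both were without a UMI in healthy brain, a ratio of at least 66.5 and at least 70.5. A count of 0 in 212497 UMIs allows up to 14.1 CPM in healthy brain, and 0 of 26 members allows a share of up to 11.5%. The transcription factor gene Irf1 was 11.4-fold higher (5.45 to 28.5). Type I interferon response genes were higher in 18 of 19 (median 2.56), led by Ifit3 at 333 CPM in IgG and 14.1 in healthy brain, and by Rsad2, which encodes the antiviral enzyme viperin, at 313 and 18.8 CPM. Without the members rich in neutrophil genes the medians were 3.22 for the interferon-γ list and 2.32 for the type I list. Thinned to 1000 UMIs per member, which also lowers every bound, the medians were 1.22 for the interferon-γ list and 1.15 for the type I list.

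Tgm2, which encodes a transglutaminase that crosslinks proteins, stood at 1449 CPM in IgG and had no UMI in healthy brain, at least 103-fold higher, and was found in 74 of the 100 IgG members. Ccl5, a chemokine for T cells and monocytes, stood at 941 CPM in IgG and 0 in healthy brain, at least 66.6-fold higher. Arg1 stood at 444 CPM in IgG and 0 in healthy brain, at least 31.4-fold higher, with 28 of 100 IgG members holding a UMI. The other members of the arginine metabolism and immunosuppression list were mostly higher as well, 10 of 13 measured (median 1.47). Neutrophils of these libraries held Tgm2, Ccl5 and Arg1 too, at 1248, 813 and 1053 CPM in IgG and 15.5, 4.66 and 0 in healthy brain. In IgG these came from 21, 2 and 5 of 57 neutrophils. Of the macrophage differentiation list 11 of 19 were higher and 3 lower (median 1.06, and 0.80 without the members rich in neutrophil genes). Its higher genes included Apoe, an apolipoprotein of tissue macrophages, at 5283 CPM in IgG and 1144 in healthy brain. B cells of the same libraries, a stand-in for free RNA, held Apoe too. It stood there at 816 CPM in αCTLA-4 with CD4 depletion, 1041 in αCTLA-4, 2110 in IgG and 113 in healthy brain. The part of free RNA in the Apoe values of the monocytes was not tested in any comparison. Inflammatory cytokine and chemokine genes were higher in 10 of 12 and lower in 2 (median 3.66, 2.68 without the members rich in neutrophil genes and 1.87 in thinned members), among them Il1b, which encodes interleukin-1β, at 280 CPM in IgG and 9.41 in healthy brain. Hif1a, the oxygen-regulated transcription factor, was 22.4-fold higher (9.51 to 69.2). Of the hypoxia and glycolysis list 12 of 17 were higher and 1 lower (median 0.71, and 1.26 without the members rich in neutrophil genes).

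The genes lower in IgG were led by neutrophil genes. S100a9 was 2059-fold and S100a8 776-fold lower, and Ngp, Camp, Ltf, Lcn2 and Wfdc21 followed. Without the members rich in neutrophil genes S100a9 was 52.2-fold and S100a8 16.7-fold lower, on too few UMIs for the size rule. Of the 10 leading names, only Pglyrp1, which encodes a peptidoglycan-binding protein, and Anxa1, which encodes annexin A1, still passed the size rule without the members rich in neutrophil genes. Anxa1 stood at 107 CPM in IgG and 1360 in healthy brain, 12.7-fold lower with all members and 8.21-fold without those. Stmn1, a tubulin regulator of dividing cells, had 85.7% of its UMIs in healthy brain in 1 member, and the proliferation list, lower in 11 of 12 measured genes, kept 4 measured genes without the members rich in neutrophil genes.

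Of 25 measured monocyte transcription factor genes 12 were at least 1.5-fold higher and 5 lower (median 0.54, and 0.22 without the members rich in neutrophil genes). The lower ones were Klf2, Klf4, Nr4a1, Ikzf1 and Irf4. Klf2, a factor of cell quiescence, stood at 161 CPM in IgG and 720 in healthy brain, 4.48-fold lower (3.52 to 5.69) and 5.97-fold without the members rich in neutrophil genes. Klf4, which is needed for Ly6C-high monocytes to form, stood at 62.1 CPM in IgG and 226 in healthy brain, 3.64-fold lower (2.40 to 5.50) and 4.29-fold without them. Nr4a1, the factor that drives patrolling monocytes, was 2.81-fold lower (1.59 to 4.90) and 3.79-fold without them. In the dissociation response list, whose genes respond to tissue digestion, 10 of 16 were higher in IgG and 1 lower (median 0.98), and the part of tissue handling was not tested. Of 25 classical monocyte genes outside the rule 9 were higher and 10 lower (median 0.15, and -0.05 without the members rich in neutrophil genes), so the group had no common direction. Among these, Thbs1, the matrix protein thrombospondin, was higher at 395 CPM in IgG and 4.71 in healthy brain, while Ifitm6 was 3.26-fold lower (2.71 to 3.92) and F13a1, the coagulation factor subunit of monocytes, stood at 311 and 541 CPM without passing the size rule.

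**Figure D3:**
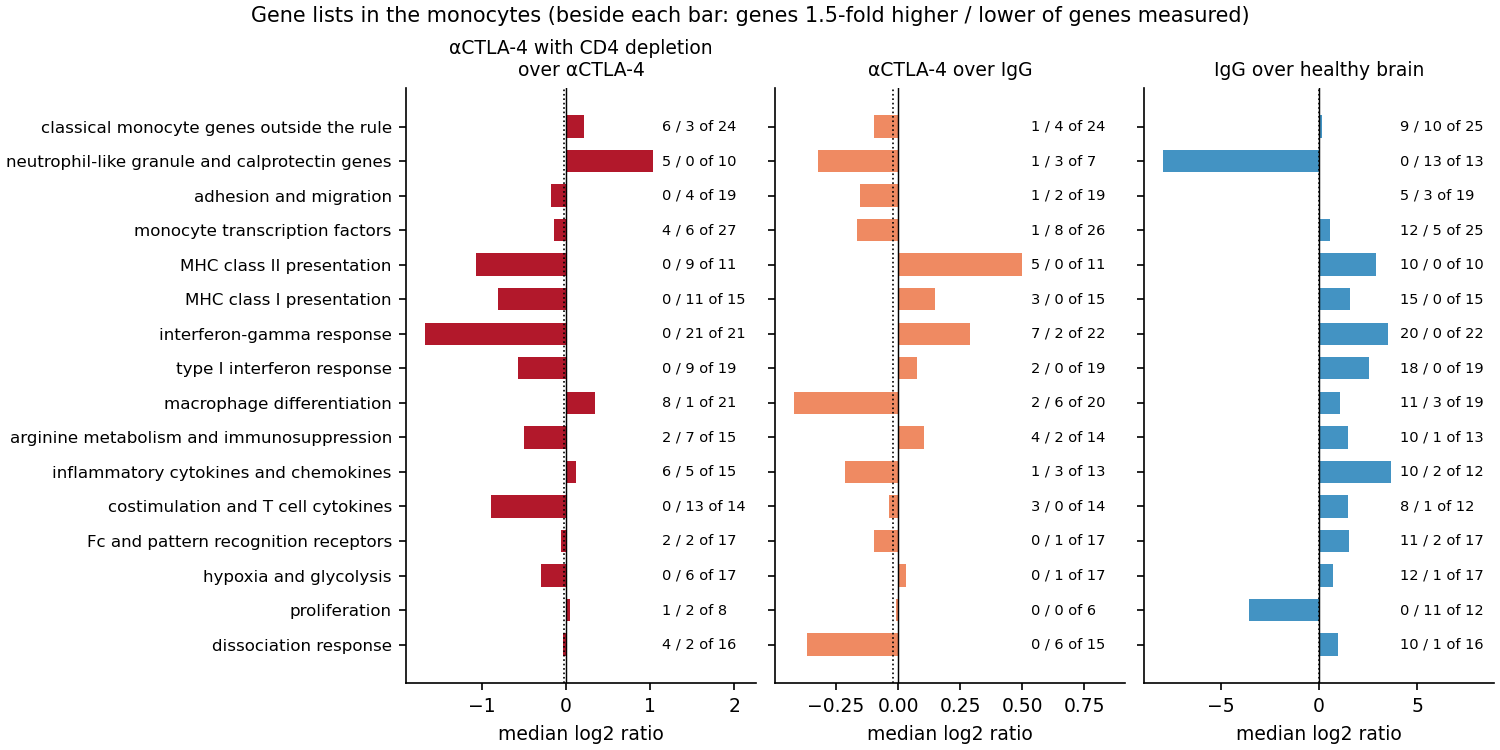
For each gene list and each of the 3 comparisons, bars give the median log2 ratio of CPM, the dotted line that of all genes, and the text beside each bar the number of genes at least 1.5-fold higher and lower of those measured. The interferon-γ response list has 21 of 21 genes lower in αCTLA-4 with CD4 depletion against αCTLA-4, 7 of 22 higher in αCTLA-4 against IgG, and 20 of 22 higher in IgG against healthy brain.

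Between αCTLA-4 and IgG the differences were far fewer. αCTLA-4 monocytes had more Ccl5, Cxcl10 and Iigp1 and less of immediate early genes and of the macrophage gene Lgmn. Of 5488 genes, 112 were higher in αCTLA-4 (2.04%) and 110 lower (2%), and 112 (2.04%) and 108 (1.97%) of 5484 without the members rich in neutrophil genes. Without members that carried B cell or NK cell genes, 89 were higher and 106 lower of 5301. Without the barcodes with the highest doublet scores, 83 were higher and 111 lower of 5242. This comparison shares its IgG library with the one against healthy brain and its αCTLA-4 library with the one described next.

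Ccl5 stood at 3304 CPM in αCTLA-4 and 941 in IgG, 3.51-fold higher (3.25 to 3.8), with a UMI in 64.0% of αCTLA-4 and 47.0% of IgG members. Of its UMIs, 30.7% in αCTLA-4 and 50% in IgG lay in 5 members. Cxcl10 stood at 2113 CPM in αCTLA-4 and 995 in IgG, 2.12-fold higher (1.96 to 2.30). Iigp1, an interferon-inducible GTPase that attacks the vacuoles of parasites, stood at 287 CPM in αCTLA-4 and 124 in IgG, 2.31-fold higher (1.84 to 2.91). Socs1, the feedback inhibitor of JAK-STAT signalling, stood at 598 and 283 CPM, 2.12-fold higher (1.82 to 2.47), and Ly6a, which encodes the interferon-inducible surface protein Sca-1, at 1249 and 512 CPM. Cxcl9 stood at 1544 CPM in αCTLA-4 and 938 in IgG, a ratio of 1.65 (1.51 to 1.79) that did not reach the size rule. Few cells carried much of these values too. In IgG, 5 members held 55.1% of the Cxcl10, 57.7% of the Cxcl9 and 54.9% of the Iigp1 UMIs, and 1 αCTLA-4 member held 22.2% of its Ly6a UMIs. Over the interferon-γ response list, 7 of 22 genes passed 1.5-fold upwards and 2 downwards, with a median log2 ratio of 0.29, while 12% of 8086 measured genes were that much higher and 14% lower (median -0.02). The other leading names were the lymphocyte activation gene Cd69 (3.51-fold), Tnip3, an inhibitor of NF-κB signalling (3.9-fold), the cAMP-responsive factor gene Crem (2.91-fold), the survival gene Bcl2a1b (2.32-fold), Spint1 (2.99-fold) and Sdf2l1 (3.26-fold).

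MHC class II genes stood at ratios below the size rule: H2-Ab1 at 2905 CPM in αCTLA-4 and 1826 in IgG, H2-Eb1 at 2121 and 1148 CPM, and Cd74 at 7472 and 5286 CPM. In the list 5 of 11 genes passed 1.5-fold upwards, with no gene lower (median 0.50). Among members with a Vcan UMI, 28 in αCTLA-4 and 34 in IgG, the median of the list was -0.41, so its direction depended on which monocytes were counted. The interferon-γ response median among those members was -0.09. Ly6a had a log2 ratio of 1.29 over all members and -1.08 among those with Vcan. MHC class I genes were higher in 3 of 15 (median 0.15), and type I interferon genes in 2 of 19 (median 0.08).

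The genes lower in αCTLA-4 than in IgG included the immediate early genes, which cells switch on within minutes of a stimulus, tissue digestion included. Dusp1, a phosphatase of MAP kinases, stood at 28.2 CPM in αCTLA-4 and 116 in IgG, 4.10-fold lower (2.71 to 6.37), Fos at 85.6 and 205 CPM, and Egr1 at 8.19 and 39.0 CPM. Few cells carried these values: 5 of the 100 IgG members held 70.5% of its Dusp1 UMIs, 72.6% of its Fos UMIs, 78.1% of its Egr1 UMIs and 68.2% of its Klf2 UMIs. In the dissociation response list 6 of 15 genes were lower and none higher (median -0.37), and the part of tissue handling in these values was not tested. Lgmn, which encodes the lysosomal protease legumain, was spread over 75 of 100 IgG members and was 2.11-fold lower in αCTLA-4 (1.77 to 2.53), at 184 CPM in αCTLA-4 and 389 in IgG. Apoe stood at 3005 CPM in αCTLA-4 and 5283 in IgG, and in B cells of these libraries at 1041 and 2110 CPM. Of the macrophage differentiation list 6 of 20 genes were lower and 2 higher (median -0.42). Arg1, at 609 CPM in αCTLA-4 and 444 in IgG, differed by 1.37-fold (1.21 to 1.56), and 48.0% of its UMIs in αCTLA-4 and 68.7% in IgG lay in 5 members. Gpr183, Osm, Hes1, Sgk1 and Nfic, the other leading names, were 2.24-fold to 4.65-fold lower.

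With CD4 depletion added to αCTLA-4, interferon-γ response, MHC and costimulatory transcripts were lower in the monocytes, and Saa3, thrombospondin and 8 of 21 macrophage differentiation genes were higher. Of 6902 genes, 232 were higher in αCTLA-4 with CD4 depletion (3.36%) and 359 lower (5.2%). Without the members rich in neutrophil genes 215 were higher (3.18%) and 324 lower (4.79%) of 6760, with 198 and 298 genes called in both versions. The balance of directions depended on the scaling: 305 were higher and 285 lower with median-of-ratios size factors, 287 and 288 with ribosomal and mitochondrial transcripts taken out of the totals, and 294 and 299 among members without a C1q UMI.

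The interferon-γ response list was lower throughout: all 21 measured genes were at least 1.5-fold lower, with a median log2 ratio of -1.68, while 19.3% of 8969 measured genes were that much lower and 15.7% higher (median -0.03). Cxcl9 stood at 266 CPM in αCTLA-4 with CD4 depletion and 1544 in αCTLA-4, 5.81-fold lower (5.30 to 6.38). Iigp1 stood at 31.7 and 287 CPM, 9.06-fold lower (7.01 to 11.8). Gbp5, a guanylate-binding protein that helps to assemble inflammasomes, stood at 59.5 and 315 CPM, 5.30-fold lower. These 3 levels also lay below those of IgG, at 938, 124 and 165 CPM. Socs1 stood at 121 CPM in αCTLA-4 with CD4 depletion and 598 in αCTLA-4, 4.94-fold lower. The induced transcription factor gene Irf1 was 3.15-fold lower (2.77 to 3.59). The list's median was -1.59 without the members rich in neutrophil genes.

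Cxcl10 stood at 798 CPM in αCTLA-4 with CD4 depletion and 2113 in αCTLA-4, 2.65-fold lower (2.49 to 2.82). The promoters of Cxcl9, Cxcl10, Gbp5 and Socs1 are shown because these genes were lower with CD4 depletion and because interferon-γ acts through known promoter elements. Each is the 250 bases before the RefSeq transcription start in GRCm38.p6, on the gene's strand, with capitals marking each match of TTCNNNGAA, the gamma-activated site, or of the interferon-stimulated response element, taken as TTTC, any 2 bases and TTTC again. Both were searched on both strands, and the gamma-activated site reads the same on either. Cxcl9 lies on the minus strand at chr5:92328080-92328329, Cxcl10 on the minus strand at chr5:92348890-92349139, Gbp5 on the plus strand at chr3:142496684-142496933 and Socs1 on the minus strand at chr16:10785537-10785786.
Cxcl9: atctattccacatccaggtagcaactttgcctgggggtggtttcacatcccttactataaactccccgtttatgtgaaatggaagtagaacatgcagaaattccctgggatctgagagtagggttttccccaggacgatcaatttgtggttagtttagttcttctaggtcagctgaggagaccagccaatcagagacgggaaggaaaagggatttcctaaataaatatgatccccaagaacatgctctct
Cxcl10: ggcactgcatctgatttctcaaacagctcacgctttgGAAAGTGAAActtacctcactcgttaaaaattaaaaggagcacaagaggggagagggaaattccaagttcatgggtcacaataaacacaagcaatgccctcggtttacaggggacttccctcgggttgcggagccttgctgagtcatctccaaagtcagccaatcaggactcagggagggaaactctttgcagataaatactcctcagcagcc
Gbp5: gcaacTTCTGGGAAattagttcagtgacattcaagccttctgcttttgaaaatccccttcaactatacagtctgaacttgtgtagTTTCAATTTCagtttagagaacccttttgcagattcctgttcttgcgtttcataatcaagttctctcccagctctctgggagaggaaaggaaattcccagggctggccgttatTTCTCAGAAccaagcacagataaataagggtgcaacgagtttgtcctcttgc
Socs1: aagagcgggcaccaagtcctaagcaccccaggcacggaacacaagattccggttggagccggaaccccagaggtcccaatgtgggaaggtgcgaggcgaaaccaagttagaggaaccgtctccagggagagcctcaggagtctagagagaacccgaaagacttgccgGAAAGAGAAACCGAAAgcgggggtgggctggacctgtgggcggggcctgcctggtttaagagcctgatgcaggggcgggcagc
The Gbp5 window held a gamma-activated site at -245 to -237, another at -52 to -44, and an interferon-stimulated response element at -165 to -156 from the start. Cxcl10 held an interferon-stimulated response element at -213 to -204, and Socs1 2 overlapping ones from -83 to -68. No match in the Cxcl9 window says only that these letters are not in it. Either element was found in 9.66% of all 32851 RefSeq promoters (7.02% for the gamma-activated site, 2.98% for the response element), and in 75% of the 20 promoters of the 18 list genes that were matched to RefSeq. These matches describe sequence and are not binding data.

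MHC class II genes were lower in 9 of 11, with none higher (median -1.07). Cd74 stood at 3553 CPM in αCTLA-4 with CD4 depletion and 7472 in αCTLA-4, 2.10-fold lower (2.04 to 2.17), and H2-Ab1 at 1335 and 2905 CPM, 2.18-fold lower (2.07 to 2.29). Ciita, the master transactivator of class II genes, was 2.51-fold lower (1.54 to 4.13). Among members with a Vcan UMI the class II median was -0.23, a smaller difference. MHC class I genes were lower in 11 of 15 (median -0.81), among them Nlrc5, 2.18-fold (1.41 to 3.36), and H2-Q7, 2.21-fold (1.84 to 2.65). Costimulatory and T cell cytokine genes were lower in 13 of 14 (median -0.89), including Cd40, the receptor for T cell CD40 ligand, at 44.5 CPM in αCTLA-4 with CD4 depletion and 147 in αCTLA-4, and Cd274, which encodes PD-L1, at 38.5 and 92.8 CPM. Type I interferon genes were lower in 9 of 19 (median -0.57), with Ifi44 3.8-fold (2.35 to 6.27) and Oasl2 2.06-fold lower (1.84 to 2.31).

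Ccl5 stood at 862 CPM in αCTLA-4 with CD4 depletion and 3304 in αCTLA-4, 3.84-fold lower (3.63 to 4.05). Ly6a was 5.93-fold lower, and the related Ly6i 4.29-fold. Irg1, which encodes the enzyme that makes itaconate, was 5.23-fold lower and Fam26f 4.10-fold. Gzma headed the list at 77.8-fold lower, but 5 of the 114 αCTLA-4 members held 97.0% of its UMIs there. Without the members that carried B cell or NK cell genes its log2 ratio was -1.36, against -6.28 with them. Arginine metabolism genes were lower in 7 of 15 and higher in 2 (median -0.50), a median of 0.15 to 0.19 when members without a C1q UMI or members thinned to 1000 UMIs were used. Arg1 stood at 568 CPM in αCTLA-4 with CD4 depletion and 609 in αCTLA-4, a ratio of 1.07 (0.976 to 1.18), and Nos2, the inducible nitric oxide synthase that competes for arginine, at 3.42 and 20.03 CPM, below the UMI share of the size rule.

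**Figure D4:**
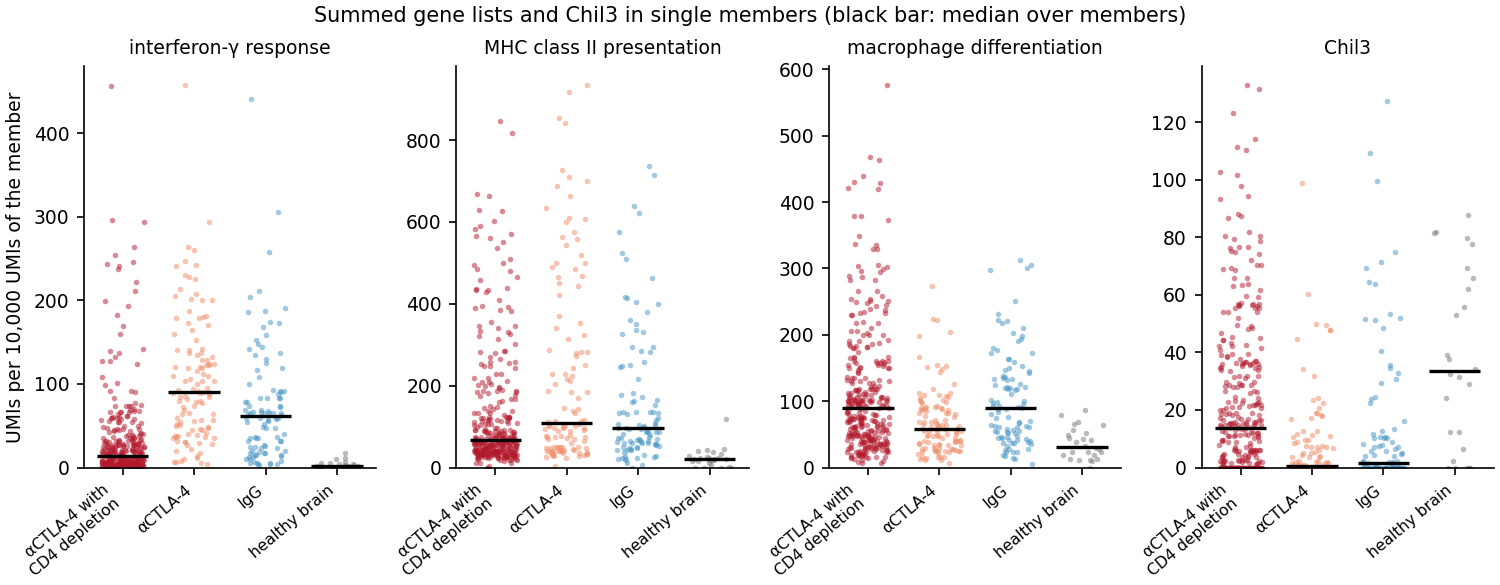
Each point is 1 member and shows its summed UMIs per 10000 for the interferon-γ response, MHC class II and macrophage differentiation lists, and its Chil3 UMIs per 10000, by library with the median marked. The median member had 14.1 interferon-γ response UMIs per 10000 in αCTLA-4 with CD4 depletion, 90.3 in αCTLA-4, 61.6 in IgG and 1.80 in healthy brain.

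The genes higher with CD4 depletion belonged to several groups. Saa3, an acute-phase serum amyloid made by inflamed macrophages, stood at 1106 CPM in αCTLA-4 with CD4 depletion, 2.73 in αCTLA-4 and 19.5 in IgG, 405-fold higher than in αCTLA-4 (138 to 1970) and 158-fold without the members rich in neutrophil genes. It came from 52 of 333 members. S100a8 was 61.6-fold higher with all members and 6.54-fold without those rich in neutrophil genes, and S100a9 251-fold and 14.5-fold. Lcn2, the iron-scavenging lipocalin of neutrophil granules, was 76.1-fold higher with and 31.1-fold without them. Il1r2, the decoy receptor for interleukin-1, was 15.4-fold higher (8.52 to 31.2) and 12.6-fold without them. It is abundant in the neutrophils of that library too, at 1387 CPM, as is Cd24a, at 531 CPM, 24.8-fold higher in the monocytes with CD4 depletion and 20.5-fold without the members rich in neutrophil genes. Neutrophils were 28.5% of the 5 CD45hi classes in αCTLA-4 with CD4 depletion and 12.8% in αCTLA-4, and their part in these values was not tested. S100a8 was found in 57.8% of Il1r2-positive and 23.5% of Il1r2-negative members of that library, those rich in neutrophil genes included. Klf9, a glucocorticoid-responsive factor gene, was 17.1-fold higher (8.19 to 43.0). Of 10 measured neutrophil-like genes 5 were higher and none lower, with a median log2 ratio of 1.03 with all members and 0.85 without those rich in neutrophil genes.

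Chil3 stood at 2221 CPM in αCTLA-4 with CD4 depletion and 752 in αCTLA-4, 2.95-fold higher (2.74 to 3.18). As one of the genes that chose the members, it is described here only. Thbs1 stood at 655 and 207 CPM, 3.17-fold higher (2.76 to 3.66), and fibronectin (Fn1) at 1404 and 910 CPM, a ratio of 1.54 (1.44 to 1.66). Over 24 measured monocyte genes outside the rule 6 were higher and 3 lower (median 0.22). Macrophage differentiation genes were higher in 8 of 21 and lower in 1 (median 0.34). Among them Lgmn stood at 553 CPM in αCTLA-4 with CD4 depletion and 184 in αCTLA-4, 3.01-fold higher (2.59 to 3.50), the lysosomal protease gene Ctsl at 335 and 93.8 CPM, 3.57-fold higher (2.91 to 4.43), and Apoe at 6458 and 3005 CPM, 2.15-fold higher (2.07 to 2.23). Spp1, which encodes osteopontin, stood at 329 and 124 CPM, 2.65-fold higher (2.21 to 3.21). Id2, an inhibitor of helix-loop-helix factors, was 3.1-fold (2.53 to 3.84) and Klf4 3.15-fold higher (2.16 to 4.76). In αCTLA-4 with CD4 depletion, summed macrophage markers were at 7057 CPM, against 3647 in αCTLA-4. Most of both sums was Apoe itself, so they largely repeat its values. The part of macrophage transcripts in these values was not tested. The other leading names were Rgs1 (13.1-fold), Cirbp (5.45-fold) and Ecm1 (5.39-fold). Rgs1 was higher in neutrophils too, at 132 CPM in αCTLA-4 with CD4 depletion and 0 in αCTLA-4. So were Saa3 (431 and 0 CPM), Klf9 (160 and 38.5), Thbs1 (227 and 38.5) and Chil3 (1060 and 64.1). The αCTLA-4 library held 44 neutrophils, and the part of neutrophil transcripts in the monocyte values was not tested.

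The members of 1 library were far from uniform. A UMI of Cxcl9 was found in 14.7% of members in αCTLA-4 with CD4 depletion, 53.5% in αCTLA-4, 34.0% in IgG and 0 of 26 in healthy brain, while B cells of the same libraries, which stand in for free RNA, had 0.901%, 5.06%, 3.92% and 0%. Thinned to 1000 UMIs per member, the monocyte shares were 8.71%, 36.8%, 20.4% and 0%. The order for Cxcl9 was therefore the same at equal depth, with αCTLA-4 highest. Il1b was found in 38.1%, 65.8%, 45% and 3.85% of members. Its thinned shares were 16.2%, 25.4%, 22.4% and 4.76%, so at equal depth αCTLA-4 and IgG lay within each other's intervals. Ccl5 was found in 35.4%, 64.0%, 47.0% and 0 of 26 members, against 7.21%, 17.1%, 17.6% and 0.990% of B cells, and in 18.9%, 45.6%, 27.6% and 0% of thinned members. Arg1 was found in 33.9% of members in αCTLA-4 with CD4 depletion, 31.6% in αCTLA-4 and 28% in IgG, against 0%, 1.27% and 1.96% of B cells, and in 0 of 26 members of healthy brain. Its thinned shares were 20.7%, 22.8% and 16.3%. Thbs1 had another order, at 59.8%, 36.8%, 48.0% and 3.85%. The median B cell had 2933, 4788, 5073 and 3466 UMIs, fewer than the median monocyte of its library. B cells were barcodes with UMIs of Cd79a or Cd79b and none of Lyz2 or the Cd3 genes. Leaving out barcodes with Lyz2 also leaves out B cells that took up free Lyz2 RNA. The B cell shares can therefore understate free RNA from myeloid cells.

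**Figure D5:**
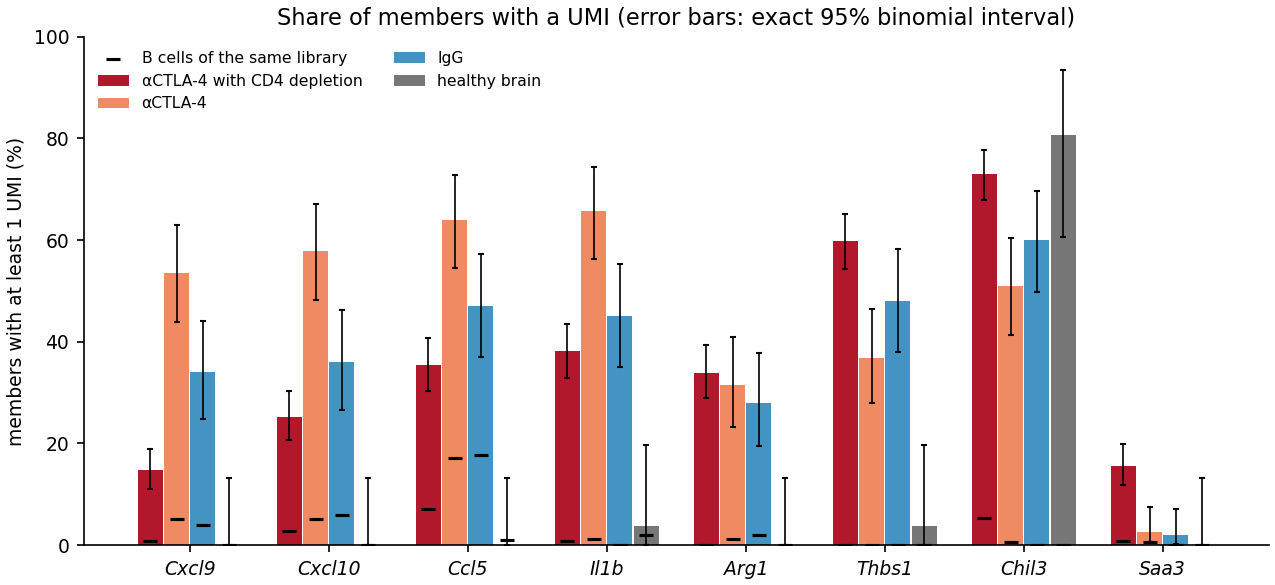
Share of members with at least 1 UMI of each gene, in percent, by library from αCTLA-4 with CD4 depletion on the left to healthy brain on the right, with exact 95% binomial intervals. Cxcl9 and Ccl5 are most frequent in αCTLA-4, at 53.5% and 64.0% of members, and Arg1 is at 33.9%, 31.6% and 28% in the tumor libraries and 0 of 26 members in healthy brain.

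Within each tumor library, and with the members rich in neutrophil genes left out, Arg1-positive members had more fibronectin and apolipoprotein E transcripts than those without Arg1. Fn1 stood at 2162 CPM in Arg1-positive and 1021 in Arg1-negative members of αCTLA-4 with CD4 depletion, at 1315 and 699 CPM in αCTLA-4, and at 1629 and 667 CPM in IgG. Chil3-positive members had less MHC class II in both αCTLA-4 libraries: H2-Ab1 stood at 789 CPM in Chil3-positive and 2653 in Chil3-negative members of αCTLA-4 with CD4 depletion, and at 1765 and 4139 CPM in αCTLA-4. In IgG the 2 sets had 1897 and 1748 CPM, so the pattern was not seen there in CPM. By share it was: a UMI of H2-Ab1 was found in 58.6% of Chil3-positive and 75% of Chil3-negative IgG members. The shares were 39.4% and 56.2% in αCTLA-4 with CD4 depletion, and 65.5% and 73.2% in αCTLA-4. These are cells of 1 library each, and depth differs between such sets, so the values are descriptive.

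The next values are over all members, those rich in neutrophil genes included. The 52 Saa3-positive members of αCTLA-4 with CD4 depletion stood apart from the 281 without Saa3. The members rich in neutrophil genes held 90.4% of the S100a8 UMIs of that library, and the split by Saa3 was not made without them. S100a8 was found in 78.8% of Saa3-positive and 27.4% of Saa3-negative members, Lcn2 in 55.8% and 12.5%, and Il1r2 in 65.4% and 29.2%. Cd74 stood at 494 CPM in Saa3-positive and 4232 in Saa3-negative members. Outside the rule, Csf1r was found in 82.7% and 86.1% and stood at 296 and 429 CPM, and Fn1 stood at 1228 and 1443 CPM. Of the rule genes, Ccr2 stood at 755 and 1129 CPM and Chil3 at 2988 and 2051 CPM. Their median was 8172 UMIs, against 6648 in the Saa3-negative members. In the same library the 49 Cxcl9-positive members had more of other interferon-γ genes than the 284 others, with Iigp1 at 110 and 17.7 CPM, Gbp5 at 166 and 40.3 CPM and Socs1 at 296 and 89.8 CPM. In the other tumor libraries Iigp1 had a lower CPM in Cxcl9-positive members, at 240 and 349 CPM in αCTLA-4 and 108 and 135 CPM in IgG. A UMI of Iigp1 was found in 39.3% of Cxcl9-positive and 45.3% of other members of αCTLA-4. In IgG the shares were 26.5% and 22.7%, so there the direction depended on the measure. Gbp5 stood at 361 and 253 CPM in αCTLA-4 and 170 and 161 CPM in IgG, and Socs1 at 643 and 538 CPM in αCTLA-4 and 402 and 205 CPM in IgG.

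Monocytes were then set beside the C1q macrophages of the same tumor libraries, the class they are known to give rise to. The genes of the class rules are left out, as are the monocytes rich in neutrophil genes. Of 5068 genes, 45 were at least 2-fold higher in monocytes in all 3 tumor libraries (0.888%) and 32 lower (0.631%). Higher in monocytes were, among others, the calcium-binding protein genes S100a4 and S100a6, Slpi, a secreted protease inhibitor, Ahnak, Ifitm6, Vcan and Cxcl10. Cxcl10 stood at 775 CPM in monocytes and 290 in macrophages of αCTLA-4 with CD4 depletion, 2113 and 722 in αCTLA-4, and 997 and 269 in IgG. Lower in monocytes were Cd63, a tetraspanin of lysosomes, at 45.3 and 386 CPM, 10.0 and 180, and 20.8 and 230 in the same order, and Cd81, Olfml3, Cst7, Timp2 and Ms4a7. S100a8 and S100a9 were also lower, in a comparison that took such cells out of the monocytes and not out of the macrophages. By list, macrophage differentiation genes were lower in monocytes (median log2 ratio -1.12, -1.15 and -1.47 in the 3 tumor libraries) and so were MHC class II genes (-0.89, -0.99 and -0.77). Type I interferon genes were higher (1.05, 0.53 and 1.27). No test is given, since the same cells chose the classes.

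Beside patrolling monocytes, 154 of 4341 genes were at least 2-fold higher in classical monocytes in all 3 tumor libraries (3.55%) and 201 lower (4.63%), again without the members rich in neutrophil genes. With healthy brain added, which then holds 17 classical monocytes and is below the minimum of 20, 28 of 3084 genes were higher in all 4 libraries (0.908%) and 96 lower (3.11%). The genes named here were chosen over the 4 libraries. F13a1 stood at 253 CPM in classical and 30.9 in patrolling monocytes of αCTLA-4 with CD4 depletion, 239 and 47.2 in αCTLA-4, 310 and 20.2 in IgG, and 624 and 90.1 in healthy brain. S100a10, Capg, Wfdc17, Mnda, Ms4a4c and Tspo were among the other leading genes. Lower in classical monocytes were Eno3, the scavenger receptor gene Cd36, Adgre4, Slc12a2, Ceacam1, Gngt2, Stap1 and Spn, which encodes the sialoglycoprotein CD43 of Ly6C-low monocytes. Interferon-γ response genes were higher in classical than in patrolling monocytes of the tumor libraries (median 1.13, 1.37 and 1.37), while the median in healthy brain was -0.73. Type I interferon genes had medians of 1.78, 1.27 and 2.19 in the tumor libraries and 0.53 in healthy brain.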

How the data were processed

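The authors deposited raw UMI counts per gene and barcode for 4 libraries, made with Cell Ranger 3.1.0 per the file headers and with mm10 per the submitters' processing notes. Aligner settings are not given in the sources used here. The members, gene lists and named-gene rule were chosen with earlier results of these data known. UMIs were summed over the members of a library (Python 3.11.15, numpy 2.4.6, scipy 1.17.1, pandas 2.3.3). Ratios have exact conditional-binomial 95% intervals, levels exact Poisson and shares exact binomial (Clopper-Pearson) ones, all covering counting error only. In each comparison the text names the 10 genes past the size rule in each direction whose log2 ratio, taken on CPM plus 20, is largest, leaving out ribosomal, mitochondrial, sex-linked, unnamed and rule genes. It also names 2 to 4 genes of each list described, mostly those with the largest ratios, and a few fixed genes. Some genes that the rule or a list names are not reported here. The 16 lists hold measured genes with 10 or more UMIs over both libraries. A further 8 listed genes are not in the table under their listed symbol. Doublets were not removed. Scrublet (scanpy 1.11.5) called 0.373% of barcodes with its own threshold, so the top 5% of scores in each library were left out as an alternative. Thinned shares drew 1000 UMIs per cell and left out 0, 0, 2 and 5 members. The ratio script was tested on simulated data. Of 27998 gene IDs, 27645 were in the annotation used for coordinates. Promoters are RefSeq's (GRCm38.p6).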

Additional observations from a re-analysis of the deposited data

How the results depend on the processing

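No paired analysis was possible because each group is 1 library, so the groups share fewer than 2 replicate numbers, and no replicate could be left out. Of 72 recomputed counts of higher or lower genes 57 stayed within 1.5 times, as did 22 of 28 member counts. Within their own counting intervals stayed 525 of 654 named-gene ratios, and 2 gene ratios changed sign. Of 528 list medians, 498 stayed between the median lower and the median upper bound of their genes. That range is not a counting interval of the median itself. Thinned to 1000 UMIs, the higher and lower counts were 143 and 37 for IgG against healthy brain, 25 and 19 for αCTLA-4 against IgG, and 146 and 141 for αCTLA-4 with CD4 depletion against αCTLA-4, where fewer genes reach the UMI minimum. With at least 10 UMIs and no minimum share they were 1101 and 977, 429 and 440, and 627 and 721. With at least 1 Vcan UMI the members were 110, 28, 34 and 7, the counts were 377 and 125 for IgG against healthy brain, and 72 were higher in αCTLA-4 than in IgG. Ly6a and Hes1 then had log2 ratios of -1.08 and 0.50 in αCTLA-4 against IgG, where all members gave 1.29 and -1.81, and the cause was not tested. Healthy brain kept 16 members without a C1q UMI and 17 without those rich in neutrophil genes, an alternative chosen after seeing the data, as was leaving out members with B or NK cell genes. Of the named-gene ratios and list medians together, those that moved by over 1.5 times were 41 of 108 in thinned members, 45 of 105 with a Vcan UMI, 20 of 108 without a C1q UMI, 15 of 108 where CPM was averaged over cells, and 14 of 105 without the members rich in neutrophil genes. They were 5 without Scrublet doublets, 2 without members with B or NK cell genes, 1 with at least 6 UMIs of the 4 genes, and 0 with a minimum of 500 genes, with median-of-ratios size factors or with ribosomal and mitochondrial genes left out. The 26 members of healthy brain limit every value against it.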

Other observations

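Fc and pattern recognition receptors were at least 1.5-fold higher in IgG than in healthy brain in 11 of 17 and lower in 2. Their median log2 ratio was 1.51, and 1.13 without the members rich in neutrophil genes. Fcgr4, an activating receptor for IgG antibodies, was 17.9-fold (6.92 to 66.3) and Fcgr1 9.40-fold higher (5.05 to 19.8). Costimulatory genes were higher in 8 of 12 and lower in 1 (median 1.48), with Cd40 at 96.3 CPM in IgG and 4.71 in healthy brain and Cd86, a ligand of CD28 and CTLA-4, 5.35-fold higher (2.39 to 14.9). Of all measured genes, 25.1% were that much higher and 25.7% lower. Adhesion and migration genes had no common direction, with 5 of 19 higher and 3 lower (median 0.04, and -0.16 without the members rich in neutrophil genes). Among these, the chemokine receptor gene Ccr1 was 9.68-fold higher (4.85 to 22.6) and the integrin gene Itga4 2.38-fold lower (1.88 to 3.01).

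Between αCTLA-4 and IgG, 1 of 26 monocyte transcription factor genes was higher and 8 lower (median -0.17), among them Klf4, 2.20-fold (1.38 to 3.56). Over all measured genes of this comparison, 12% were at least 1.5-fold higher and 14% lower. Of 17 Fc and pattern recognition receptors only 1 passed, Tlr13, an endosomal receptor for bacterial ribosomal RNA, 2.02-fold lower (1.33 to 3.12). The arginine list had 4 of 14 genes higher and 2 lower (median 0.11), with Arg2, the mitochondrial arginase, 2.46-fold higher (1.41 to 4.52). Proliferation genes passed in 0 of 6 in either direction. With CD4 depletion added, hypoxia and glycolysis genes were lower in 6 of 17 with none higher (median -0.30), among them Pfkl, a phosphofructokinase of glycolysis, 2.13-fold (1.56 to 2.90). Adhesion genes were lower in 4 of 19 with none higher (median -0.18), a share close to the 19.3% of all measured genes that were at least 1.5-fold lower. Icam1, a ligand of leukocyte integrins, stood at 50.1 CPM in αCTLA-4 with CD4 depletion and 117 in αCTLA-4. Irf8, a factor of monocyte and dendritic cell development, was 2.13-fold (1.90 to 2.38) and Batf3 2.16-fold lower (1.49 to 3.14), within a transcription factor list of 4 higher and 6 lower of 27 (median -0.14). Those list shares were close to the 15.7% and 19.3% of all measured genes that were at least 1.5-fold higher and lower. The dissociation response list had 4 of 16 genes higher and 2 lower in that comparison (median -0.04).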
